A study of Mus musculus with 9 samples.

Results

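The effect of the Tg4-42 transgene on the hippocampal neuronal transcriptome was described by comparing the 3 libraries of vehicle-treated Tg4-42 mice with the 3 libraries of vehicle-treated wild-type (WT) mice, which are 6 of the 9 libraries of the series. The libraries were chosen by their genotype label, APP Transgenic or Wildtype, and by the absence of a treatment label. The name Tg4-42 comes from the study, which describes the line as not overexpressing human amyloid precursor protein (APP). Of the 48709 genes in the count tables, 17361 had enough reads to be tested. Both groups had a C57BL/6J background, were 6 months old and drank plain tap water, while the 3 libraries not compared here came from Tg4-42 mice that drank caffeine. Tg4-42 mice express human Aβ4-42, fused to the signal peptide of thyrotropin-releasing hormone (TRH), in neurons under the murine Thy1 promoter, and the mice were homozygous for the transgene. The study used a single line of this construct, so that an effect of Aβ4-42 and an effect of the insertion or of the line cannot be told apart. RNA came from nuclei of whole frozen hippocampi that were stained for the neuronal protein NeuN and sorted, and a lower count can therefore mean fewer nuclei of a cell type or less RNA per nucleus, which cannot be told apart in such pooled material.

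Aβ4-42 is an amyloid-β peptide that lacks the first amino acids and aggregates readily. A signal peptide sends a nascent protein into the endoplasmic reticulum (ER), where chaperones fold it and where misfolded protein sets off the unfolded protein response. Mouse transgenes are often built from parts of mouse genes, and reads from such parts are counted on the mouse gene they were taken from.

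Between 9342945 and 16376922 reads were counted on exons in each of the 6 libraries. The correlation of log CPM (read counts scaled to the size of each library) across genes lay between 0.978 and 0.983 within the groups and between 0.979 and 0.985 across them, so that libraries of different genotype were about as alike as libraries of the same genotype. All 6 libraries carried transcripts of the Y-linked gene Ddx3y (116 to 157 CPM) and hardly any of Xist, which is expressed from the inactive X chromosome of females (0.482 to 1.95 CPM), so the groups did not differ in this respect. The neuronal identity markers were present in every library, with Snap25, a protein of synaptic vesicle fusion, between 2367 and 3510 CPM and Rbfox3, which encodes NeuN, between 89.3 and 116.9 CPM. The labels name 6 per group for the isolation of nuclei, while 3 libraries per group were analysed here, and they do not say whether a library holds 1 animal or a pool. The names of the count tables give lane 7 for replicate 3 of each group and lane 6 for the others. The p-values of the fit set the difference between the groups against the spread between libraries. That spread was estimated from all 9 libraries, those of caffeine-treated mice included.

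In total, 17 genes were differentially expressed, 10 higher and 7 lower in Tg4-42 mice, at an adjusted p under 0.05 in edgeR's quasi-likelihood test. This was 0.0979% of the genes tested, 0.0576% in the higher and 0.0403% in the lower direction. Without adjustment, 475 genes had a p under 0.05 (2.74%), of which 286 were higher (1.65%) and 189 lower (1.09%). The median log2 fold change of all genes tested was 0.00. Of the 10524 genes with a mean of at least 10 CPM, 99.3% had a log2 fold change within 0.5 of 0, and only 13 had one beyond 1. The groups did not overlap for 1168 genes (6.73%), with 620 higher (3.57%) and 548 lower (3.16%) in Tg4-42 mice. The 17 genes were found on few chromosomes. Trh on chromosome 6 and Thy1 on chromosome 9 carry parts of the construct, 11 genes were on chromosome 14, 2 on chromosome 7 and 1 on chromosome 17. The remaining one, ENSMUSG00000091089, has no symbol or position in the annotation used.

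**Figure D1:**
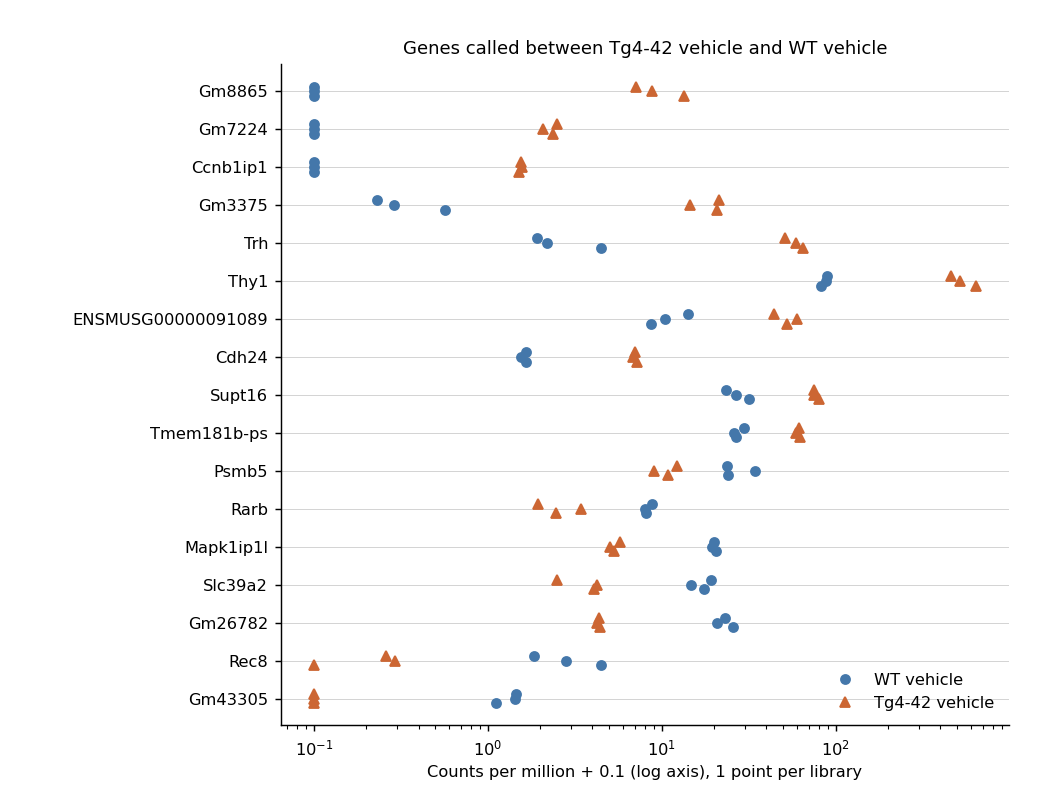
Expression of the 17 differentially expressed genes in each library, as CPM plus 0.1 on a log axis. Circles are the 3 WT and triangles the 3 Tg4-42 libraries, and the groups are apart for every gene, as the choice by adjusted p leads to.

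Among the called genes, the gains in CPM were largest for the 2 genes that lent sequence to the construct. Trh encodes the precursor of TRH, the hypothalamic hormone that drives thyrotropin release. It was counted at 4.39, 2.08 and 1.81 CPM in the WT libraries and at 64.7, 59.5 and 51.3 CPM in the Tg4-42 libraries. All Tg4-42 libraries were far above all WT libraries, which corresponds to 4.43 on the log2 scale (standard error 0.25, adjusted p = 6.4e-08 in edgeR's test). Its coding sequence begins as follows, on the minus strand of chromosome 6 of GRCm38, in a single exon, as annotated by GENCODE. The start codon is in capitals, and the stretch is shown because a signal peptide is encoded at this end of the gene.
Trh, chr6:92243805-92243879, minus strand: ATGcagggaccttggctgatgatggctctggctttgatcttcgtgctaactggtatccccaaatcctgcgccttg

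Thy1, a surface glycoprotein of neurons, was counted at 82.1, 87.4 and 88.8 CPM in WT and at 639, 516 and 461 CPM in Tg4-42 libraries, a difference of 2.64 on the log2 scale (standard error 0.15, adjusted p = 6.4e-08 in edgeR's test). The 3 WT values lay close together and the Tg4-42 values were more spread. For both genes the exact permutation test (two-sided) gives p = 0.1, the smallest value that 3 libraries against 3 allow. Within 250 kb of Trh, 6 other genes were tested, and 9 within 250 kb of Thy1. None of these 15 neighbours was called or had an unadjusted p under 0.05 in edgeR's test. App itself, the mouse gene of the amyloid precursor protein, was at 1020, 1186 and 1323 CPM in WT and at 1074, 1202 and 1139 CPM in Tg4-42 libraries, and the groups overlapped. Of the 8 tested genes of the TRH system, Trh was the only one called. Trhde, which encodes the enzyme that degrades TRH, was at 52.4 to 59.5 CPM in WT and 60.0 to 67.5 CPM in Tg4-42 libraries, a log2 fold change of 0.16 (adjusted p = 1.00).

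The gene with the smallest p was Gm3375, a processed pseudogene on chromosome 7 (3181093 to 3181888 of GRCm38). It was nearly absent from the WT libraries, with 0.471, 0.190 and 0.129 CPM, and was counted at 20.7, 14.4 and 21.1 CPM in the Tg4-42 libraries. On the log2 scale it rose by 6.16 (standard error 0.33, adjusted p = 6.4e-08 in edgeR's test), or by 6.79 without WT replicate 1, since the WT level rests on few reads. Gm3375 is a copy of Psmb5, the gene of a catalytic subunit of the proteasome on chromosome 14 (54614119 to 54618022). Over 796 aligned bases the transcripts were 98.9% identical. Psmb5 was counted at 24.0, 34.1 and 23.7 CPM in WT and at 10.7, 8.98 and 12.1 CPM in Tg4-42 libraries, so that it fell by 1.37 on the log2 scale (standard error 0.19, adjusted p = 0.0028 in edgeR's test). One member of the pair was thus called higher and the other lower. Their sum was 24.5, 34.3 and 23.8 CPM in WT and 31.4, 23.4 and 33.2 CPM in Tg4-42 libraries. The summed groups overlapped, and a fit on the summed counts, chosen after seeing the data, gave a difference of 0.09 on the log2 scale (standard error 0.18, adjusted p = 1.00).

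The same arrangement of a copy elsewhere and a parent gene on chromosome 14 was found for 2 more pseudogenes. Gm7224 on chromosome 7 (42047948 to 42050212) had no count in any WT library and 2.27, 1.99 and 2.41 CPM in the Tg4-42 libraries, at least 10.8-fold above the level of 3 counts per library. Its transcript was 96.1% identical to that of Fbxo34, an F-box protein gene on chromosome 14 (47450421 to 47531962), over 2087 aligned positions. Fbxo34 was at 59.7, 71.2 and 68.5 CPM in WT and at 48.4, 52.9 and 47.7 CPM in Tg4-42 libraries. All 3 Tg4-42 values were below all WT values, but the log2 fold change of -0.42 was not called (adjusted p = 1.00). Gm5828 on chromosome 1 was just not called (adjusted p = 0.101), with 0, 0 and 0.194 CPM in WT and 0.758, 1.41 and 1.28 CPM in Tg4-42 libraries. It was 96.7% identical to Tox4, a gene of a chromatin protein on chromosome 14 (52279146 to 52296401), over 1858 positions. Tox4 was at 91.0, 91.3 and 80.8 CPM in WT and at 60.0, 68.2 and 71.3 CPM in Tg4-42 libraries, a log2 fold change of -0.40 (adjusted p = 1.00). When each of these pairs was summed, the log2 fold change was -0.36 for Fbxo34 with Gm7224 and -0.37 for Tox4 with Gm5828, and neither was called (adjusted p = 1.00 for both). Fold changes of these 6 genes are uncertain, because 50-base reads can be counted on either member of such a pair. Coding stretches of 120 bases of each parent gene are given with the same stretch of the copy, from the GENCODE transcripts. Each is the stretch without gaps, within a single exon of the parent gene, that holds the most differences. The pairs are therefore closer over their full alignments than in these stretches. Capitals mark the positions at which the members of a pair differ, which are 3 for Psmb5, 9 for Fbxo34 and 6 for Tox4.
Psmb5, chr14:54616633-54616752, minus strand: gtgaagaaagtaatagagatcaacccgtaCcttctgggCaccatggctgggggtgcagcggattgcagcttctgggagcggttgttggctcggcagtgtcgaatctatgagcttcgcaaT
Gm3375, chr7:3181361-3181480, plus strand: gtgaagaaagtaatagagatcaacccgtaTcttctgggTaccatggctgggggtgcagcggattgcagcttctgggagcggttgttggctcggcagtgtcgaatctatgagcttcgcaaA
Fbxo34, chr14:47529203-47529322, plus strand: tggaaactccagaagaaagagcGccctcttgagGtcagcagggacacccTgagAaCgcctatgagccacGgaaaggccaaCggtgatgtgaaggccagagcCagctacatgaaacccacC
Gm7224, minus strand of chromosome 7: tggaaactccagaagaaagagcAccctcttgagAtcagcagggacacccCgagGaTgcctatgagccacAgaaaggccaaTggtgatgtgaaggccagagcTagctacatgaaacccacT
Tox4, chr14:52287343-52287462, plus strand: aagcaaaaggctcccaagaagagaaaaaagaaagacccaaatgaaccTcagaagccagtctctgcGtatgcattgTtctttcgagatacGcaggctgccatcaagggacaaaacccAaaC
Gm5828, chr1:16769398-16769517, minus strand: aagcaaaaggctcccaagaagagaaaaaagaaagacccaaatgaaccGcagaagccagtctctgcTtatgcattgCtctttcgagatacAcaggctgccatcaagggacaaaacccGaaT

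**Figure D2:**
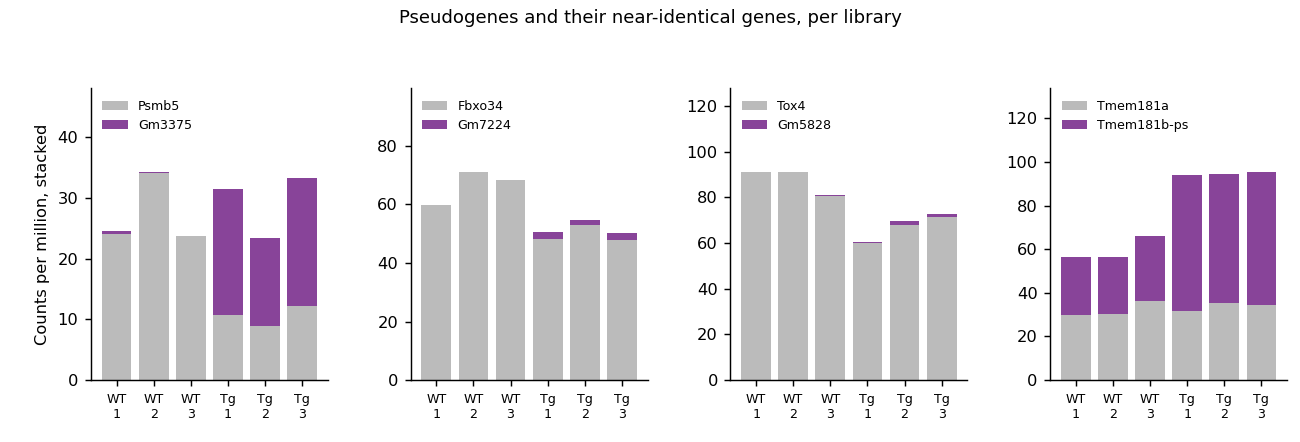
CPM of 4 pseudogenes (purple) stacked on the CPM of the near-identical gene (grey), in each WT and Tg4-42 library. The stacked height of Psmb5 and Gm3375 overlaps between the groups (23.8 to 34.3 against 23.4 to 33.2 CPM), while that of Tmem181a and Tmem181b-ps does not, with Tmem181b-ps alone at 26.0 to 29.5 against 59.0 to 62.2 CPM.

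Not every pseudogene followed this pattern. Tmem181b-ps on chromosome 17 (6438524 to 6467022) was at 26.6, 26.0 and 29.5 CPM in WT and at 62.2, 59.0 and 61.3 CPM in Tg4-42 libraries, a difference of 1.15 on the log2 scale (standard error 0.12, adjusted p = 8.6e-05 in edgeR's test). Tmem181a on the same chromosome, 98.8% identical to it over 1680 bases, was at 30.0, 30.4 and 36.5 CPM in WT and at 31.8, 35.4 and 34.2 CPM in Tg4-42 libraries. The sum with Tmem181a and the third copy, Tmem181c-ps, was still called, with a log2 fold change of 0.66 (adjusted p = 0.0329). Gm8865 on chromosome 14 (54826247 to 54826676) had no count in WT and 13.3, 8.73 and 6.99 CPM in Tg4-42 libraries, at least 46.9-fold above the level of 3 counts. Its nearest relatives Ifitm2 and Gm11951, 95.6% and 96.0% identical, stayed at or under 0.513 CPM in all 6 libraries. These were the 4 called genes among the 423 tested pseudogenes, compared to 0.0979% of all genes tested. All 4 were higher, but Gm3375, Gm7224 and Gm8865 had few or no WT reads. They passed the filter on low counts only through the Tg4-42 and caffeine libraries, so they could hardly have been called lower. With all such copies summed, 14 genes were called, 8 higher and 6 lower.

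Of the 527 tested genes on chromosome 14, 9.49% had an unadjusted p under 0.05, compared to 2.52% of the genes elsewhere. They were densest between 50 and 55 Mb, where 25 of 53 genes had such a p (16 higher, 9 lower). Supt16, a subunit of the FACT histone chaperone, was at 31.9, 26.7 and 23.4 CPM in WT and at 79.9, 75.1 and 74.8 CPM in Tg4-42 libraries (log2 fold change 1.49, standard error 0.13, adjusted p = 1.8e-05 in edgeR's test). It was the only called gene of 18 tested histone chaperones and elongation factors, of which 11 were negative (median -0.03). The exons of Supt16 share 1057 bases with Rpgrip1 on the other strand, which went the opposite way (1.62 to 2.20 CPM in WT, 0.482 to 0.642 CPM in Tg4-42, adjusted p = 0.85). The library kit does not mark strand, so reads of the shared stretch cannot be told apart. Cdh24, a cadherin of cell adhesion, was at 1.57, 1.45 and 1.55 CPM in WT and at 7.14, 6.74 and 6.91 CPM in Tg4-42 libraries (log2 fold change 2.18). It was the only called gene of the 91 tested cadherins and protocadherins. Ccnb1ip1, known from meiotic crossing over, had no count in WT and 1.41 to 1.48 CPM in Tg4-42 libraries, at least 6.99-fold above the level of 3 counts.

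Among the genes that fell, the zinc transporter gene Slc39a2 was at 17.3, 14.7 and 19.1 CPM in WT and at 4.00, 4.17 and 2.41 CPM in Tg4-42 libraries (log2 fold change -2.27, adjusted p = 0.00013 in edgeR's test). Mettl17, which shares 151 exonic bases with it, was at 124 to 158 CPM in WT and 131 to 151 CPM in Tg4-42 libraries. Mapk1ip1l was at 19.3 to 20.4 CPM in WT and 4.94 to 5.62 CPM in Tg4-42 libraries, and the noncoding RNA Gm26782 at 20.7 to 25.7 CPM and 4.17 to 4.33 CPM. In each case the spread within a group was small beside the gap between the groups. Rarb, the gene of retinoic acid receptor β, was at 8.002, 7.96 and 8.66 CPM in WT and at 2.38, 3.34 and 1.85 CPM in Tg4-42 libraries (log2 fold change -1.68, standard error 0.25, adjusted p = 0.0078 in edgeR's test). It shares 1793 exonic bases with Top2b on the other strand, which did not follow (77.7 to 81.4 CPM in WT, 71.5 to 84.4 CPM in Tg4-42). Rec8, a cohesin subunit of meiosis, was at 4.39, 2.72 and 1.75 CPM in WT and at 0, 0.193 and 0.161 CPM in Tg4-42 libraries. Gm43305 was at 1.02 to 1.36 CPM in WT and had no count in Tg4-42 libraries, at least 4.89-fold below. These last 2 genes rest on few reads, and when 1 library was left out, Rec8 was called in 1 of 6 fits and Gm43305 in 0. Among the genes without a position, ENSMUSG00000091089 was at 8.55, 10.3 and 14.1 CPM in WT and at 52.2, 60.0 and 44.0 CPM in Tg4-42 libraries (log2 fold change 2.24, adjusted p = 1.1e-05 in edgeR's test).

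**Figure D3:**
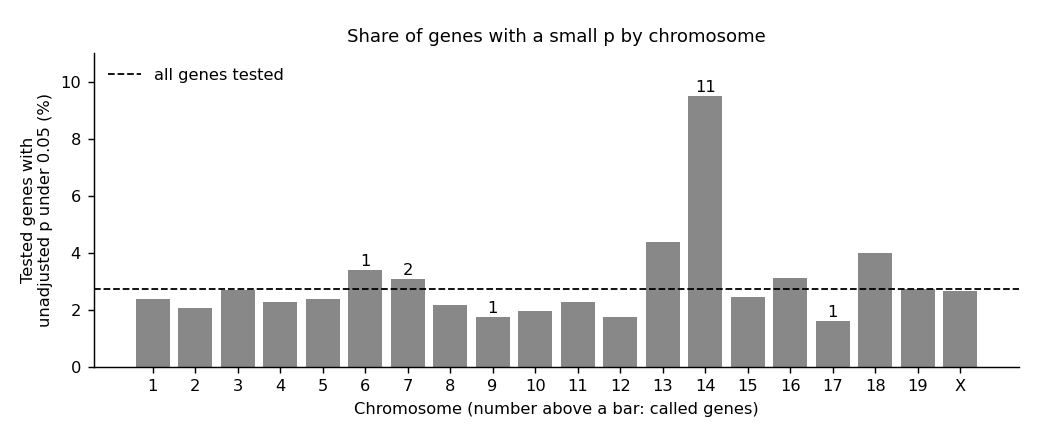
Percent of tested genes with an unadjusted p under 0.05 on chromosomes 1 to 19 and X, with the dashed line at 2.74% for all genes tested and the number of called genes above a bar. Chromosome 14 reaches 9.49% with 11 called genes, and the next highest of those plotted are chromosomes 13 (4.36%) and 18 (3.99%) with none, while chromosome Y, with 1 of 7 tested genes, is not plotted.

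Ide, the gene of insulin-degrading enzyme, which cleaves insulin and amyloid-β, was the best known gene close to the threshold. It was at 98.7, 64.9 and 120.8 CPM in WT and at 235, 247 and 147 CPM in Tg4-42 libraries, a difference of 1.15 on the log2 scale (standard error 0.22, adjusted p = 0.127 in edgeR's test). The groups did not overlap, but Tg4-42 replicate 3 was closer to the highest WT library than to the other Tg4-42 libraries, and the exact permutation p was 0.1, the smallest possible. Ide was called with DESeq2 and in 2 of the 6 fits that left out 1 library. The chromosome 19 segment that holds Ide and Fgfbp3 is known to vary in copy number among C57BL/6J colonies. Fgfbp3, a carrier of fibroblast growth factors, was at 3.77, 2.97 and 5.56 CPM in WT and at 8.33, 12.6 and 8.19 CPM in Tg4-42 libraries, without overlap (log2 fold change 1.25, adjusted p = 0.486). Within 250 kb of Ide, which does not include Fgfbp3, 7 other genes were tested. The pseudogene Rpl10-ps6, which lies inside the Ide gene, had a log2 fold change of 1.05 and an unadjusted p under 0.05 in edgeR's test (adjusted p = 1.00). Its Tg4-42 replicate 3, at 1.20 CPM, was inside the WT range of 0.948 to 1.23 CPM. The rest overlapped between the groups and lay between -0.21 (Gm22714) and 0.46 (A330032B11Rik) on the log2 scale. Among them, Cpeb3 was at 0.08, March5 and Kif11 at 0.02 and Exoc6 at -0.03. The copy number was not tested here. Nnt, a mitochondrial transhydrogenase that carries a known deletion in C57BL/6J mice, divided the Tg4-42 libraries. It was at 33.2, 31.1 and 30.5 CPM in WT and at 32.9, 16.9 and 16.1 CPM in Tg4-42 libraries, so that replicate 1 was like WT and replicates 2 and 3 were at a lower level (adjusted p = 1.00).

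The other genes of smallest p that were not called had small counts or modest changes. Pcdhb2, a clustered protocadherin of chromosome 18, was at 2.28, 1.52 and 1.62 CPM in WT and at 4.76, 5.97 and 3.61 CPM in Tg4-42 libraries (log2 fold change 1.42, adjusted p = 0.166). The adjacent family member Pcdhb3 was at 11.2 to 14.6 CPM in WT and 17.02 to 25.9 CPM in Tg4-42 libraries. Pcdhga11, a clustered protocadherin of the gamma group, was at 8.97 to 10.7 CPM and 3.37 to 7.68 CPM. These clustered protocadherins thus had opposite signs, and none passed edgeR's test. Of the 91 tested cadherins and protocadherins, 63 were positive and 28 negative (median 0.08). At an unadjusted p under 0.05 in edgeR's test 7 were higher and 2 lower, compared to 1.65% and 1.09% of all genes. The median lay between 0.04 and 0.12 with each library left out. Atxn1, the ataxin gene of a spinocerebellar ataxia, was at 39.7 to 43.7 CPM in WT and 24.2 to 30.0 CPM in Tg4-42 libraries (log2 fold change -0.62, adjusted p = 0.256). Derl3, which takes part in ER-associated degradation, was at 1.26 to 1.94 CPM in WT and 3.29 to 4.65 CPM in Tg4-42 libraries (log2 fold change 1.33, adjusted p = 0.256), and Haus4, an augmin subunit of chromosome 14, at 1.49 to 3.66 CPM and 4.98 to 7.58 CPM. Gm26670, Spata1, Gm43858 and Sec14l4 completed the 10 genes, with adjusted p between 0.0656 and 0.256 in edgeR's test. Like Ide, Gm26670, Spata1, Gm43858, Haus4, Atxn1 and Pcdhb2 were called with DESeq2 (adjusted p between 0.013 and 0.047), while Gm5828, Derl3 and Sec14l4 were not. The groups did not overlap for any of the 10, as the choice by p leads to, compared to 6.73% of all genes tested without overlap.

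Beyond single genes, 62 lists of genes were examined, 15 of cell type markers and 47 of pathways and families. The medians of the lists with at least 10 tested genes lay between -0.26 and 0.26 on the log2 scale. All genes tested had a median of 0.00 with quartiles of -0.11 and 0.12, which describe the spread of single genes and not that of medians. Apart from genes already named above, no member of a list was called.

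**Figure D4:**
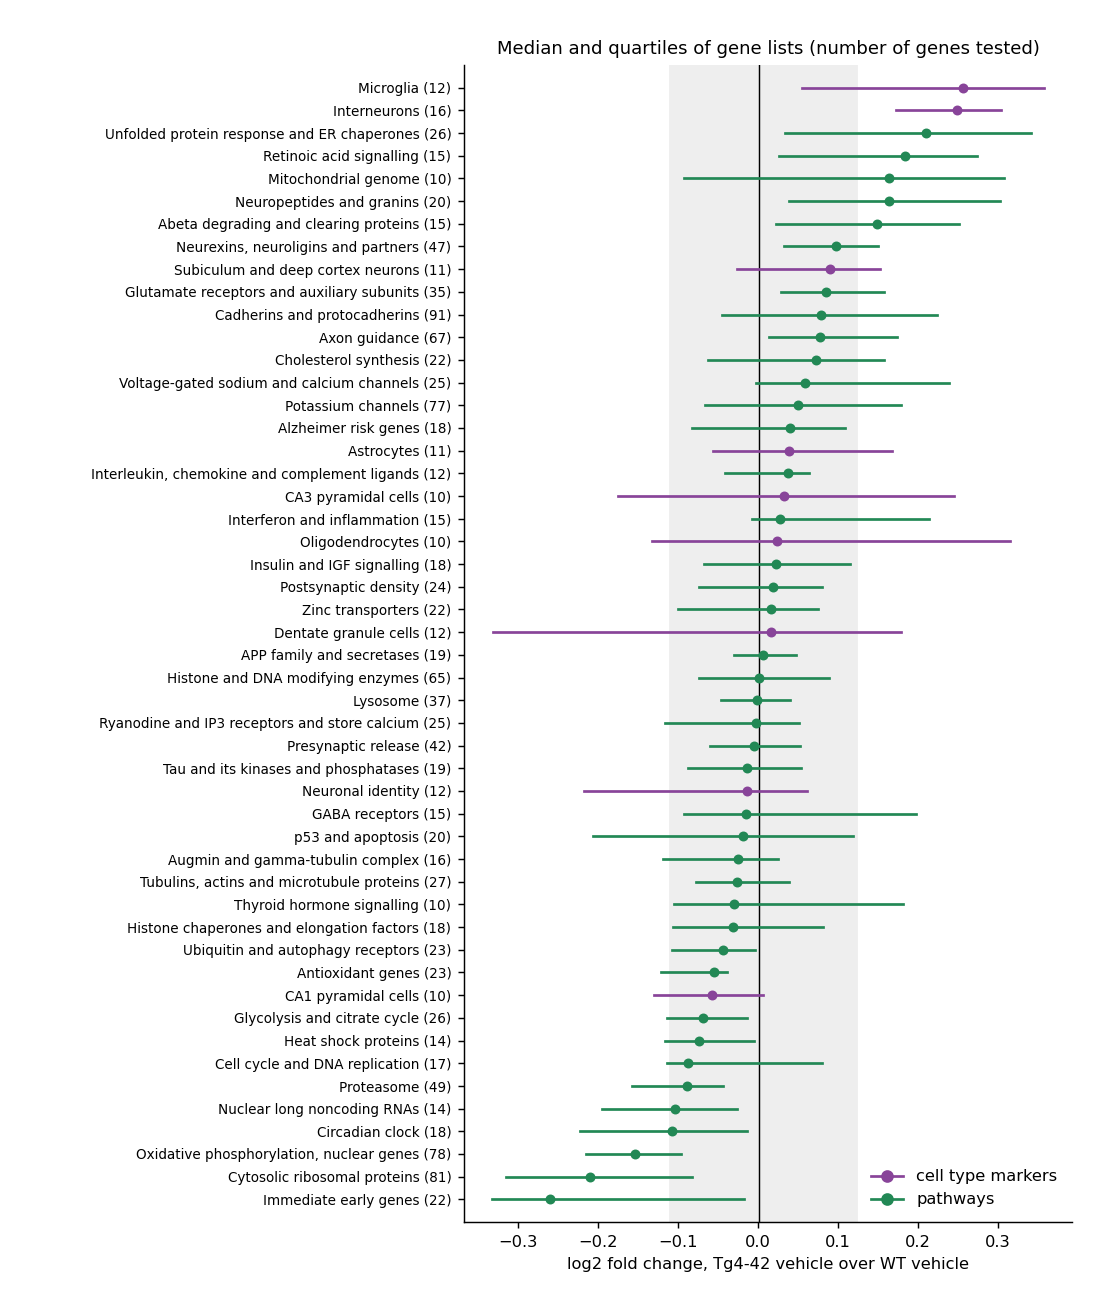
Median log2 fold change (point) and quartiles (line) of each list with at least 10 tested genes, Tg4-42 over WT, with cell type markers in purple and pathways in green. The outermost medians are those of the immediate early genes (-0.26) and of the microglia markers (0.26), and the grey band holds the quartiles of single genes over all genes tested (-0.11 to 0.12).

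ER chaperones stood at the higher end. Of 26 tested genes of the unfolded protein response and ER folding, 20 had a positive log2 fold change, the median was 0.21, and 6 had an unadjusted p under 0.05, all higher, compared to 1.65% of all genes. None was called (the lowest adjusted p was 1.00). Hspa5, which encodes the main ER chaperone BiP, was at 739, 944 and 1208 CPM in WT and at 1348, 1383 and 1417 CPM in Tg4-42 libraries (log2 fold change 0.52, standard error 0.17). Hsp90b1, the ER form of Hsp90, was at 511, 552 and 666 CPM and at 757, 781 and 809 CPM (0.44). The calcium-binding chaperone Calr was at 575 to 698 CPM in WT and at 831 to 887 CPM in Tg4-42 libraries (0.42), and the disulfide isomerase Pdia6 at 404, 482 and 540 CPM and at 674, 616 and 623 CPM (0.42). For each of these 4 genes the WT values were spread, with replicate 1 lowest, and the Tg4-42 values were close together above them. These genes were chosen by their p. The groups overlapped for the sensors and transcription factors of the response. Among the sensors, the log2 fold change was 0.29 for Ern1, 0.10 for Atf6 and -0.17 for Eif2ak3. Among the transcription factors it was 0.20 for Xbp1, -0.10 for Atf4 and 0.03 for Ddit3. At the level of the whole list the groups overlapped, with centred medians of -0.35, -0.15 and 0.21 in WT and 0.03, 0.14 and 0.14 in Tg4-42 libraries on the log2 scale, so that WT replicate 1 was lowest and WT replicate 3 highest of all. Without WT replicate 1 the median log2 fold change was 0.06, with 5 genes higher and 1 lower at an unadjusted p under 0.05, and without WT replicate 3 it was 0.36 with 11 genes higher.

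Genes of protein synthesis and respiration stood at the lower end. Of 81 tested cytosolic ribosomal protein genes 67 had a negative log2 fold change, with a median of -0.21. An unadjusted p under 0.05 was reached by 7, all lower (1.09% of all genes), and the groups did not overlap for 16, all lower (3.16% of all genes). Rpl32 had the smallest p, with 10.4, 13.9 and 9.05 CPM in WT and 6.39, 5.97 and 5.70 CPM in Tg4-42 libraries (log2 fold change -0.89, adjusted p = 0.382). Rps15a was at 43.5, 51.2 and 43.7 CPM and at 31.9, 38.3 and 33.4 CPM (-0.42, adjusted p = 1.00). Ribosomal protein genes have many near-identical pseudogenes, and their counts are uncertain for that reason. Of 78 nuclear genes of oxidative phosphorylation 74 had a negative log2 fold change, with a median of -0.15. An unadjusted p under 0.05 was reached by 5, all lower (1.09% of all genes). Atp5j, a subunit of ATP synthase, was at 126, 149 and 118 CPM in WT and at 102, 92.6 and 116 CPM in Tg4-42 libraries (-0.34, adjusted p = 1.00). Of 49 proteasome genes 43 had a negative value, with a median of -0.09, and Psmb5, described above with its copy, was the only one called. Psmb11 was at or under 0.259 CPM in WT and at 0.513 to 1.45 CPM in Tg4-42 libraries (adjusted p = 0.752).

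These 3 lists moved together with 1 library. WT replicate 2 was the highest library for each of them, and without it the medians were -0.09 for the ribosomal proteins, -0.01 for oxidative phosphorylation and 0.00 for the proteasome, with 3 ribosomal and 0 oxidative phosphorylation genes at an unadjusted p under 0.05. On the level of a whole list, the ribosomal protein genes of the 3 WT libraries were still all above those of the 3 Tg4-42 libraries, by centred medians of 0.03, 0.25 and 0.01 against -0.06, -0.10 and -0.10 on the log2 scale. The groups overlapped for oxidative phosphorylation and for the proteasome. As many as 20 of 23 antioxidant genes and 21 of 26 genes of glycolysis and the citrate cycle were also negative, with small medians of -0.05 and -0.07, which were 0.00 and -0.01 without WT replicate 2. Nqo1, a quinone reductase, was at 2.20 to 3.28 CPM in WT and 1.41 to 1.45 CPM in Tg4-42 libraries (log2 fold change -0.94, adjusted p = 1.00). Transcripts of the mitochondrial genome are not made in the nucleus, and their share of the counts was between 0.0211% and 0.0411% in the 6 libraries.

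**Figure D5:**
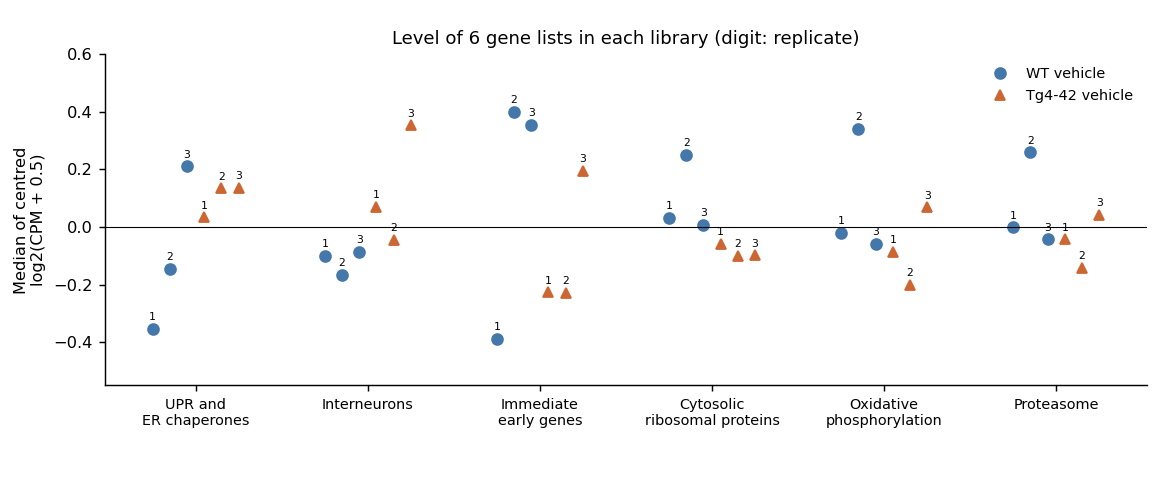
Level of 6 gene lists in each library, as the median over genes of log2(CPM + 0.5) after centring each gene on its mean over the 6 libraries. Circles are WT and triangles Tg4-42 libraries with their replicate number, WT replicate 1 is lowest for the ER chaperones and the immediate early genes, and WT replicate 2 is highest for the 3 lists on the right.

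Lists of synaptic and adhesion genes had small positive medians. Of 47 genes of neurexins, neuroligins and their partners 38 were positive (median 0.10), of 35 glutamate receptor genes 28 (median 0.09), and of 67 axon guidance genes 51 (median 0.08). With each library left out, these medians lay between 0.05 and 0.15, 0.05 and 0.17, and 0.03 and 0.14, in the same order. Cntn3, a contactin, was at 49.9, 40.8 and 64.6 CPM in WT and at 68.0, 60.3 and 76.8 CPM in Tg4-42 libraries, and the groups overlapped (log2 fold change 0.40, adjusted p = 1.00). The netrin receptor gene Unc5d was at 64.8, 67.3 and 75.1 CPM in WT and at 78.5, 83.7 and 92.5 CPM in Tg4-42 libraries, without overlap (0.30, adjusted p = 1.00). Long genes as a class lay in the same direction. Of 950 tested genes over 200 kb, 648 were positive (median 0.06), with 23 higher and 3 lower at an unadjusted p under 0.05, which together are 2.74% of them and as large a share as among all genes, whereas 3226 of the 6875 genes of 10 to 50 kb were positive (median -0.01). The part of gene length in the values of these lists was not tested. Scaffolds of the postsynaptic density and the release machinery had medians of 0.02 and 0.00, with 14 of 24 and 19 of 42 genes positive.

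No cell type marker was called apart from Cdh24. Interneuron genes were positive for 16 of 16 tested (median 0.25), with 2 higher at an unadjusted p under 0.05, compared to 1.65% of all genes. The groups overlapped for each single gene, whereas the centred medians of the list were -0.10, -0.17 and -0.09 in WT and 0.07, -0.04 and 0.35 in Tg4-42 libraries on the log2 scale, without overlap. Tg4-42 replicate 3 was highest, and without it the median log2 fold change was 0.08. Npy, a neuropeptide of interneurons, was at 77.98, 105 and 110 CPM in WT and at 140, 93.2 and 156 CPM in Tg4-42 libraries. CA1 pyramidal markers, which label the field where Tg4-42 mice are known to lose neurons, were positive for 3 of 10 genes, with a median of -0.06 that was -0.19 without WT replicate 3 and 0.01 without Tg4-42 replicate 1. Wfs1 was at 153, 203 and 163 CPM in WT and at 142, 151 and 157 CPM in Tg4-42 libraries (adjusted p = 1.00), and the summed level of the 10 CA1 markers was 671 to 1047 CPM in WT and 748 to 895 CPM in Tg4-42 libraries. Dentate granule cell markers were positive for 6 of 12 genes, and their summed level was 750 to 1010 CPM in WT and 553 to 1132 CPM in Tg4-42 libraries, with Tg4-42 replicate 3 lowest. The markers of CA3 were positive for 5 of 10 genes, among them Cdh24.

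Markers of cells that the NeuN sort should remove were present in both groups at overlapping levels. These levels were not low for all of them, since Mbp was counted above Rbfox3, the gene of NeuN, in every library. The 13 microglia markers summed to 65.2 to 97.1 CPM in WT and 75.3 to 106.6 CPM in Tg4-42 libraries. All 12 tested were positive, with a median of 0.26 that was 0.13 without WT replicate 1 and 0.12 without Tg4-42 replicate 2, including C1qa, a complement component, at 1.49 to 2.72 CPM in WT and 2.65 to 3.79 CPM in Tg4-42 libraries (log2 fold change 0.70, adjusted p = 1.00). The oligodendrocyte markers summed to 386 to 526 CPM in WT and 420 to 548 CPM in Tg4-42 libraries, with the myelin gene Mbp at 130 to 166 CPM and 135 to 167 CPM. The astrocyte markers summed to 452 to 594 CPM in WT and 453 to 589 CPM in Tg4-42 libraries. None of these lists had a member at 0 in every library. Ttr, a marker of choroid plexus, was at 43.1 to 65.8 CPM in WT libraries and at 2.16, 108.5 and 132.3 CPM in Tg4-42 libraries, so that Tg4-42 replicate 1 held little of it.

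No gene that makes or clears amyloid-β was called in the reported fit, although Ide, described above, was called with DESeq2. The 19 genes of the APP family and secretases had a median of 0.01 and a range of -0.08 to 0.20, and 11 were positive. Of 15 genes that degrade or clear amyloid-β 13 were positive (median 0.15). An unadjusted p under 0.05 was reached by 2, Ide and Lrp2, both higher (1.65% of all genes). The median was 0.05 without WT replicate 1, 0.31 without WT replicate 3 and 0.03 without Tg4-42 replicate 3. Lrp2, a receptor that takes up many ligands, was at 0.388 to 1.02 CPM in WT and 1.37 to 2.57 CPM in Tg4-42 libraries (log2 fold change 1.32, adjusted p = 1.00). Immediate early genes, which neuronal activity induces, had the lowest median of the lists (-0.26, with 17 of 22 negative). They varied widely between libraries of the same group, and without WT replicate 1 the median was -0.46, compared to -0.10 without WT replicate 2. Inhba, an activin subunit of this list, went the other way, with 9.57, 9.41 and 8.28 CPM in WT and 18.8, 12.2 and 15.7 CPM in Tg4-42 libraries (log2 fold change 0.77, adjusted p = 0.607). Of 18 clock genes 14 were negative, with a median of -0.11 that was -0.22 without WT replicate 1 and 0.01 without WT replicate 3, and Ciart, a repressor of the clock, was at 30.0, 39.5 and 38.1 CPM in WT and at 23.3, 19.4 and 28.03 CPM in Tg4-42 libraries (log2 fold change -0.61, adjusted p = 1.00).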

How the data were processed

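RNA sequencing of NeuN-sorted hippocampal nuclei was analysed in 3 WT and 3 Tg4-42 libraries. The authors prepared libraries with a low-input kit that does not mark strand, sequenced single-end 50-base reads, aligned them with STAR and deposited whole-number counts of reads on the exons of each gene by featureCounts, without normalization. The submitters' notes name the genome builds mm10 and GRCm38, and tool versions are not given in the sources used here. The labels give a treatment only for caffeine, and vehicle was taken from the design, as was the line name Tg4-42. Symbols and positions of 48349 genes came from GENCODE M21.

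Counts were fitted in R 4.3.3 with edgeR 4.0.16 over all 9 libraries without covariates, which share 1 estimate of the spread (filterByExpr with a minimum count of 10 and total of 15, TMM, robust quasi-likelihood F test, Benjamini-Hochberg adjustment, threshold 0.05). Standard errors came from the F statistic, and CPM used TMM-scaled library sizes. A group without counts was compared at the floor of 3 counts per library (0.189 to 0.325 CPM), which covers counting error only. The script was tested on simulated data. Copies were found with blastn 2.17.0+ (at least 95% identity over at least 50% of the transcript), for the 17 called genes and the next 10. The genes named are the called genes, Trh, Thy1, App, Ide and their neighbours, the 10 next by p, and up to 3 members of each list by p, with the most abundant markers of cell types. Fbxo34, Tox4, the other copies and overlapping genes, Rpl10-ps6, and the sensors and transcription factors of the unfolded protein response were added for their relation to these. The genes and lists were chosen with earlier results of these data known. Alternatives were DESeq2 1.42.0, RLE factors, all genes with any read, only genes with a mean of at least 50 counts, the 6 libraries alone, the sequencing lane as a term, a replicate block, leaving out each library and, added after seeing the data, summed copies.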

Additional observations from a re-analysis of the deposited data

How the results depend on the processing

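All 17 genes kept their direction in each of the 13 alternatives that gave a value, and 13 of them were also called in each alternative that gave an adjusted p. The number of called genes was 17 in the reported fit and 14 to 18 with each library left out. It was 74 without the filter on low counts (45 higher, 29 lower, 20 on chromosome 14), where the 17 were all included, and DESeq2 called 25, of which 16 were higher. The number of lower genes was 4 to 6 with each library left out, and it was 4 without Tg4-42 replicate 3. Without 1 library, 8 to 10 of the called genes were on chromosome 14. Rarb was called in 11 of 13 alternatives, Ccnb1ip1 in 11 of 12, Rec8 in 7 of 12 and Gm43305 in 4 of 12. The log2 fold change of Ide was 1.15 in the reported fit (adjusted p = 0.127), 1.14 with DESeq2 (adjusted p = 0.00026) and 1.14 without the filter (adjusted p = 2.9e-12), both called. It was between 0.93 and 1.35 with each library left out and was called without WT replicate 3 (1.35, adjusted p = 0.031) and without Tg4-42 replicate 3 (1.34, adjusted p = 0.0062). The cause of these differences was not tested. Of the medians of the lists under these alternatives, 28 moved by more than the spread between replicates and 789 were not counted as moved. The latter include the values for all genes tested, for which no such spread was computed. That spread is one of single libraries, and a group mean of library values shifts by less when 1 library is left out. The medians of fitted log2 fold changes are not such means and can move by more. For the neuronal identity markers, with a spread of 0.04, the median went from -0.01 to -0.09 without WT replicate 1. The count therefore cannot decide whether the medians were stable. For oxidative phosphorylation, never counted as moved, the median was -0.153 in the reported fit and between -0.244 and -0.006 with each library left out. The replicate numbers follow the order of the samples, and the labels give no pairing. Libraries with the same number had correlations of 0.188, 0.138 and 0.156 in their deviations from the group means, and each correlated best with its own number, a hint from the data and not from the design. With the replicate block 16 genes were called, and 16 with the lane as a term, Gm43305 being lost in both (adjusted p = 0.071 and 0.054). At these depths, genes near 1 CPM rest on about 10 to 16 reads per library, which limits what can be said of Rec8, Gm43305 and Ccnb1ip1.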

Other observations

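Of 20 tested neuropeptide and granin genes, 15 were positive (median 0.16), and apart from Trh none was called. An unadjusted p under 0.05 was reached by 3, all higher (1.65% of all genes). The median was 0.03 without WT replicate 1 and 0.01 without Tg4-42 replicate 3. Pnoc, which encodes nociceptin, was at 19.2, 16.8 and 15.3 CPM in WT and at 19.2, 26.1 and 22.8 CPM in Tg4-42 libraries, and the groups met at their ends (log2 fold change 0.41, adjusted p = 1.00 in edgeR's test). Among 14 nuclear long noncoding RNAs, 11 were negative, with a median of -0.10 that lay between -0.21 and -0.06 with each library left out. Meg3, one of the most abundant transcripts of neuronal nuclei, was at 8395, 6617 and 7537 CPM in WT and at 6178, 6123 and 6210 CPM in Tg4-42 libraries, and Mirg of the same imprinted cluster was at 36.4 to 45.3 CPM and 30.3 to 34.2 CPM (log2 fold changes -0.28 and -0.36, adjusted p = 1.00). Neat1, which builds the paraspeckles, was at 5.73, 6.82 and 12.4 CPM in WT and at 14.3, 13.8 and 13.8 CPM in Tg4-42 libraries (log2 fold change 0.74, adjusted p = 1.00). The Tg4-42 values of Meg3 and Neat1 were closer together than those of WT.

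Of 15 retinoic acid genes 11 were positive, with a median of 0.18 that was 0.06 without WT replicate 1 and 0.02 without Tg4-42 replicate 3. Beside Rarb, which fell, Aldh1a3, an enzyme of retinoic acid synthesis, was at 0.314, 0.442 and 0.388 CPM in WT and at 1.19, 1.48 and 1.37 CPM in Tg4-42 libraries (log2 fold change 1.79, adjusted p = 0.461 in edgeR's test), without overlap. Lysosomal genes (18 of 37 positive) and GABA receptors (7 of 15) had medians of 0.00 and -0.01. Histone and DNA modifying enzymes (34 of 65 positive) had a median of 0.00, as had the ryanodine and IP3 receptors with store calcium genes (12 of 25).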
